A study of Mus musculus with 12 samples.

Results

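Expression of 10 genes for neuropeptides and proteins of secretory granules was described in cultured mouse cortical neurons: Sst, Npy, Vip, Cck, Tac1, Penk, Crh, Ostn, Vgf and Scg2. They were found by symbol among the 23893 gene symbols of the count table, and all 10 were present. The genes were chosen by name with differences between these groups already known and with no threshold on a value. Their changes below are therefore a description, and a count over them is not independent support for a direction.

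The RNA-seq experiment held 12 libraries, 3 in each of 4 groups: WT and Top1 cKO cultures, each with vehicle (WT-Veh, Top1 cKO-Veh) and with topotecan (WT-Topot, Top1 cKO-Topot). The cultures came from the cortex of mouse embryos at E13.5 to E15.5 and, by the study's methods, carried floxed Top1 on both alleles in all 4 groups, including the groups labelled wild-type (C57BL6 strain). At 3 days in vitro (DIV) the WT cultures received a lentivirus for the red fluorescent protein tdTomato and the Top1 cKO cultures one for tdTomato and CRE, the recombinase that deletes the floxed part of Top1, both driven by the CaMKIIα promoter. That promoter is used to express genes in excitatory neurons, and the methods give 85 to 90% of neurons as transduced, so Top1 cKO cultures can hold cells with intact Top1. At DIV 15, 300 nM topotecan, a drug that traps the DNA-cutting enzyme topoisomerase I (TOP1) on DNA, or its vehicle, 0.003% DMSO, was added for 3 days.

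Neuropeptides are made as longer precursors that enter the secretory pathway, are cut by prohormone convertases and are packed into dense core granules, which release them when the neuron fires. Granins such as VGF and secretogranin II are cargo of the same granules and are themselves cut into peptides. In the cortex, somatostatin, neuropeptide Y, vasoactive intestinal peptide and corticotropin-releasing hormone are made chiefly by subsets of GABAergic interneurons, whereas cholecystokinin is made by interneurons and by pyramidal cells. Transcription of several of these precursors is known to respond to neuronal activity and to cyclic AMP, through factors of the CREB family that bind the cAMP response element.

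The 6 member promoters held by the RefSeq table (build GRCm38.p6) were searched for the cAMP response element because it is the site through which such genes are classically studied. The element, TGACGTCA, was looked for on both strands in the 250 bases before the transcription start, and so was its shorter core TGACG (either end of the palindrome), which lies within the full element. Among 32851 promoters of that length in the table, 508 (1.55%) held the full element and 17.8% the core. The full element was present in the Sst and Scg2 promoters, and the core alone in those of Vip, Cck and Tac1. No match was found in the Npy window. The promoters of Penk, Crh, Ostn and Vgf were not analysed here. The matches are shown 5′ to 3′ on the strand of the gene, with the matching bases in capitals, and say nothing on whether a factor was bound in these cultures.

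Sst, 48 to 41 bases before the start, chr16:23890874-23890903, minus strand: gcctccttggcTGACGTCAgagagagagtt

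Scg2, 68 to 61 bases before the start, chr1:79440076-79440105, minus strand: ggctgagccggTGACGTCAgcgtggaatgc

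Vip, 79 to 75 bases before the start, chr10:5639128-5639154, plus strand: gatcactactgTGACGtctttcgggga

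Cck, 47 to 43 bases before the start, chr9:121495726-121495752, minus strand: ctgctggactgCGTCAgcactgggtaa

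Tac1, 197 to 193 bases before the start, chr6:7554853-7554879, plus strand: ccctaaaattgCGTCAtttcgaacaca

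Tac1, 43 to 39 bases before the start, chr6:7555007-7555033, plus strand: ctctacaggctCGTCAcgcctgagata

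The libraries held 1730164 to 4583777 counts over exons, so that 3 counts, taken here as the floor of detection, were worth 0.687 to 1.73 CPM (counts relative to library size, scaled by edgeR) in single libraries. Intervals and floors cover counting error only. Top1 itself was at 117 to 163.5 CPM in the 6 tdTomato libraries and at 27.1 to 44.0 CPM in the 6 CRE libraries. The study describes its replicates as cultures, and neither it nor the labels tie them to animals, so p-values measure the spread between cultures. Samples that share a replicate number in the labels departed from their group means in the same direction (r = 0.261 to 0.485 over 18 pairs), and a second fit that blocks on this number is reported where a call depends on it. Calls are genes under a false discovery rate (FDR) of 0.01, adjusted over all genes of the table.

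All 10 genes were detected, at levels that spanned several orders of magnitude. Per kilobase of annotated exon, Scg2 was first among the 10 in WT-Veh at 839 ± 513 CPM per kb (SD, n = 3), followed by Vgf (523), Sst (371) and Cck (236). Neighbours among these 4 overlapped between libraries. Penk (90.9 CPM per kb) lay below all of them and above Npy (46.6). Tac1 (13.3), Ostn (7.15), Vip (4.62) and Crh (4.23) closed the order, and from Npy on each overlapped with the next. Under topotecan in WT cultures the order of levels per kb began with Cck (211), Sst (179) and Scg2 (174), which overlapped, and Vgf (68.5) came next. In both Top1 cKO groups Scg2, Cck, Sst and Vgf again took the first 4 places, in that order. Cck overlapped with Sst and Sst with Vgf, and Scg2 lay apart from Cck only with vehicle. Ostn came last, at 0.658 CPM per kb with vehicle and 0.0778 with topotecan.

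**Figure D1:**
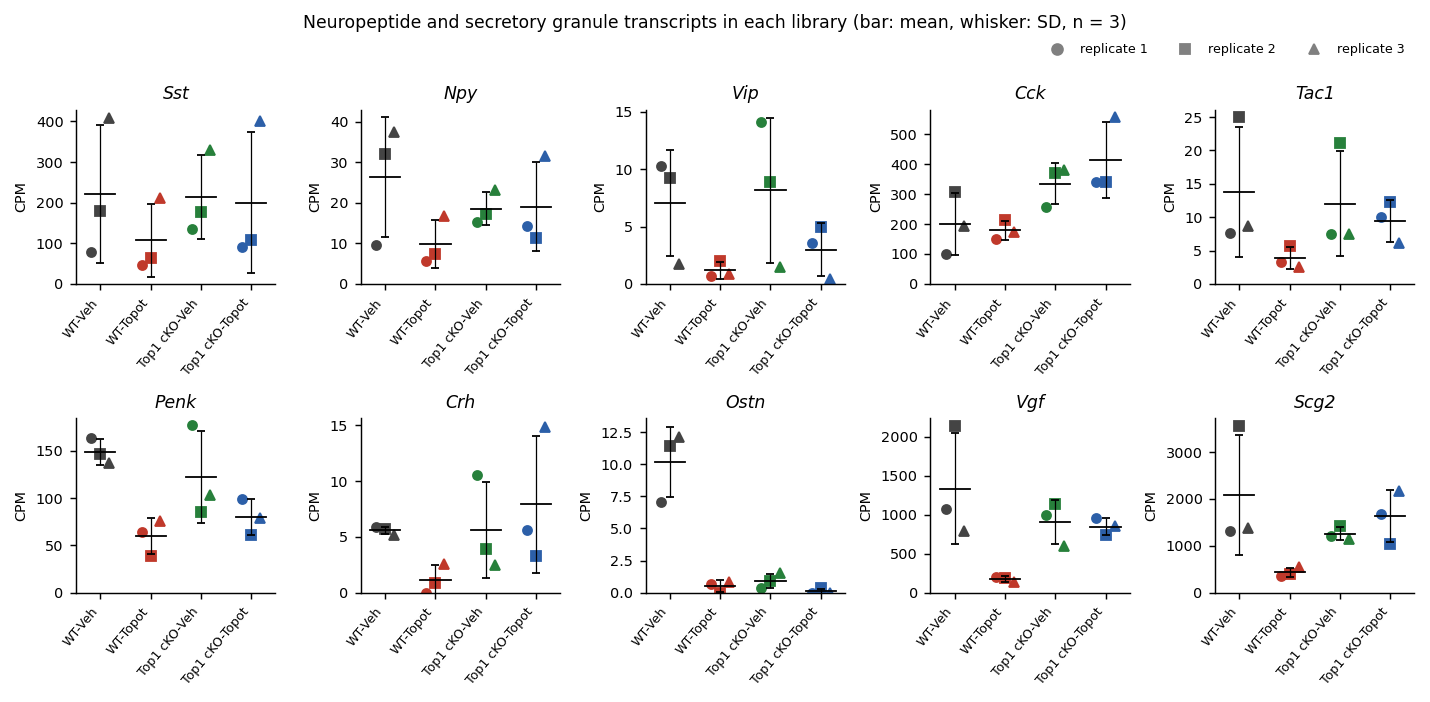
CPM of each gene (linear axes from 0) in the 12 libraries, with symbols for the replicate number, bars for the mean and whiskers for the SD of 3 libraries. Vgf and Scg2 were lowest in WT-Topot, where Vgf lay at 136 to 201 CPM, and Ostn was high only in WT-Veh, at 7.02 to 12.1 CPM.

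The first comparison asked how topotecan changed the genes with Top1 intact. Between WT-Topot and WT-Veh, 4 of the 10 genes fell (Vgf, Scg2, Ostn and Penk) and 0 rose, beside 3.56% of all 13720 genes that averaged 1 CPM or more. With the replicate number as a block, 9 of 10 fell, all but Cck, beside 8.71% of genes. For 6 of the 10 (Tac1, Penk, Crh, Ostn, Vgf and Scg2) every WT-Topot library lay below every WT-Veh library, as it did for 13.2% of genes. The median log2 fold change was −2.02 over the 10 genes and 0.03 over the 13720. In bulk cultures, fewer cells of a type and less RNA per cell cannot be told apart.

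Deletion of Top1 without the drug was the second comparison. Between Top1 cKO-Veh and WT-Veh, Ostn alone fell, beside 0.219% of genes, and it was also the 1 gene of the 10 whose libraries lay apart and lower (10.3% of genes). With the block, Ostn, Vgf and Scg2 fell (3 of 10, beside 5.15% of genes) and Cck rose (1 of 10, beside 4.53%). The median log2 fold change of the 10 genes was −0.21. The 2 comparisons against WT-Veh share those 3 libraries.

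The third comparison asked what topotecan changed once Top1 had been deleted. Between Top1 cKO-Topot and Top1 cKO-Veh, 0 of 10 genes were called by edgeR, 0 by DESeq2 and 0 by edgeR's exact test. Calls were rare among all genes too: edgeR called 2 of 13720 lower and 0 higher. Of the 10, 2 (Penk and Vip) had an unadjusted edgeR p under 0.05, both with a negative log2 fold change. Of all 13720 genes, 591 were lower and 348 higher at that unadjusted threshold. With the block, Penk fell (1 of 10, beside 3.02% of genes) and Scg2 rose (1 of 10, beside 1.49%). Ostn was the 1 gene whose libraries did not overlap, all at or near the floor, and 6.56% of genes lay apart in that direction. The median log2 fold change of the 10 was −0.08.

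The last pair compared the genotypes under the drug. Between Top1 cKO-Topot and WT-Topot, Cck, Vgf and Scg2 were higher in Top1 cKO-Topot (3 of 10, beside 2.55% of genes), and with the block also Sst, Npy, Tac1 and Crh (7 of 10, beside 8.02%). Libraries lay apart and higher for 5 genes, Cck, Tac1, Crh, Vgf and Scg2, as for 13.3% of genes. The effect of topotecan itself differed between the genotypes for Vgf and Scg2, in a test of the interaction over all 12 libraries (2 of 10, beside 0.692% of genes). With the block the same 2 genes were called, beside 4.24% of genes.

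**Figure D2:**
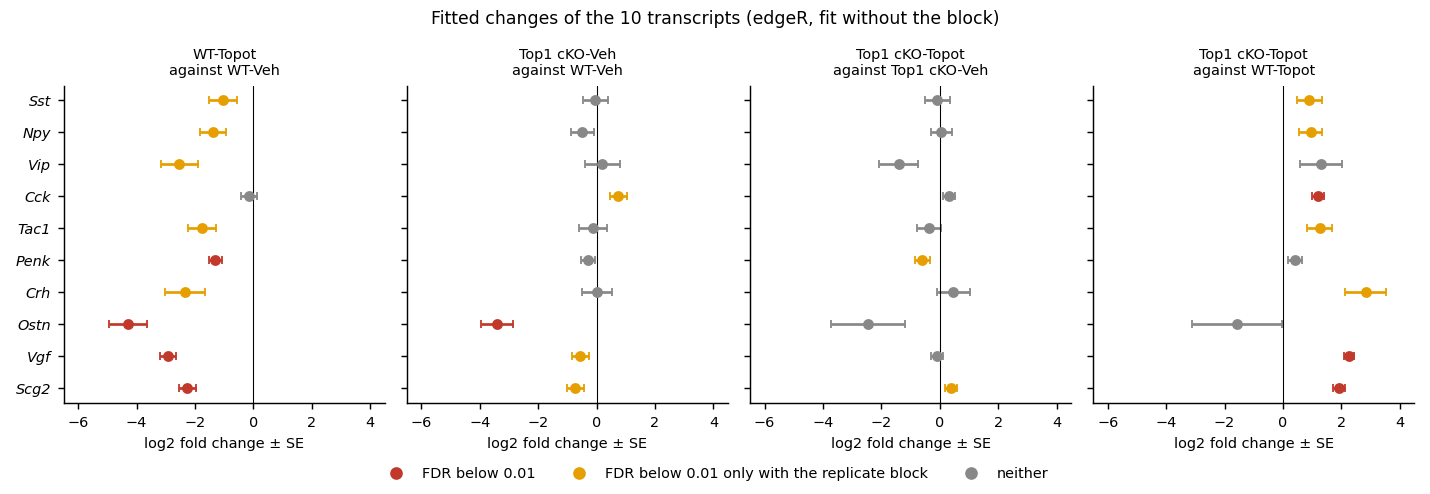
Log2 fold changes (points) with their standard errors (bars) of the 10 genes in the 4 comparisons, from the edgeR fit without the block. Red points are under an FDR of 0.01, orange points only with the replicate block, and Cck is the gene nearest to 0 in WT-Topot against WT-Veh, at −0.16.

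The granins changed most in absolute level. Vgf encodes a neurosecretory protein first found as a transcript induced by nerve growth factor, and lies at chr5:137506165-137509221 on the plus strand (NCBIM37, the assembly that mm9 names, GENCODE vM1). It was at 1073, 2137 and 798 CPM in WT-Veh libraries 1, 2 and 3, and at 201, 188 and 136 CPM in WT-Topot. In the CRE cultures Vgf was at 995, 1137 and 595 CPM with vehicle and at 953, 739 and 855 CPM with topotecan. The WT-Topot libraries lay below the other 9 without overlap, and the 2 Top1 cKO groups overlapped. Topotecan lowered Vgf 7.63-fold in WT cultures, a log2 fold change of −2.93 ± 0.28 (SE) (edgeR adjusted p = 1.5e-06). In Top1 cKO-Topot against Top1 cKO-Veh it was −0.09 ± 0.20 (edgeR adjusted p = 1), and the topotecan effects differed by 2.83 ± 0.39 (edgeR interaction, adjusted p = 8.0e-04). Top1 cKO-Topot exceeded WT-Topot 4.83-fold (log2 2.27 ± 0.17, edgeR adjusted p = 1.7e-08). Against WT-Veh, Vgf in Top1 cKO-Veh had a log2 fold change of −0.56 ± 0.30 (edgeR adjusted p = 0.68), and with the block it was lower, at −0.48 ± 0.09. Without the block and without WT-Veh replicate 2 it was −0.037.

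Scg2, the precursor of secretoneurin, lies at chr1:79431244-79436665 on the minus strand (NCBIM37), and its promoter holds the full element shown above. Its WT-Veh libraries read 1312, 3557 and 1386 CPM and its WT-Topot libraries 354, 399.6 and 543 CPM. With CRE it was at 1201, 1416 and 1155 CPM without and at 1684, 1049 and 2174 CPM with topotecan. As for Vgf, the 3 WT-Topot libraries were lower than all others, and here library 2 of WT-Veh stood above its own group. Topotecan lowered Scg2 4.82-fold in WT cultures (log2 −2.27 ± 0.29, edgeR adjusted p = 4.6e-05), and the value was −1.64 without WT-Veh replicate 2. In Top1 cKO cultures the change was 0.39 ± 0.20 (edgeR adjusted p = 1), and with the block Scg2 was higher, at 0.33 ± 0.07. The effects differed by 2.65 ± 0.42 (edgeR interaction, adjusted p = 0.0024, range 5.8e-10 to 0.0123 over the alternatives), by 2.02 without WT-Veh replicate 2, and the call was lost with edgeR's filter on low counts. Top1 cKO-Topot exceeded WT-Topot 3.76-fold (edgeR adjusted p = 2.2e-06). Deletion alone gave −0.73 ± 0.29 (edgeR adjusted p = 0.41), and with the block Scg2 was lower, at −0.57 ± 0.09. Without the block and without WT-Veh replicate 2 the value was −0.10, and the same-numbered pairs differed by −0.13, −1.33 and −0.26 in log2(CPM + 1).

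Ostn encodes osteocrin, a secreted peptide related to natriuretic peptides that binds their clearance receptor NPR3, and lies at chr16:27307575-27351298 on the plus strand (NCBIM37). At 43.7 kb it has the longest span of the 10 genes, which otherwise run from 1.26 kb (Sst) to 8.40 kb (Vip). Ostn had 24, 26 and 21 counts in the WT-Veh libraries, which is 7.02, 11.4 and 12.1 CPM. It had 2, 0 and 2 counts in WT-Topot. In the CRE cultures it had 1, 4 and 3 counts with vehicle and 0, 1 and 0 with topotecan. Every library outside WT-Veh was near or under the floor of 3 counts, and none overlapped with WT-Veh. From summed counts scaled to library size, WT-Veh exceeded WT-Topot 21.0-fold (exact 95% counting interval 7.87 to 79.3) and Top1 cKO-Veh 10.7-fold (5.12 to 25.6). The fitted log2 values were −4.30 ± 0.65 (edgeR adjusted p = 2.4e-04, and a value of −3.64 without WT-Topot replicate 2) and −3.41 ± 0.55 (edgeR adjusted p = 0.0089, range 2.4e-09 to 0.0438 over the alternatives). The call after deletion was lost with the filter on low counts and when replicate 2 of either WT-Veh or Top1 cKO-Veh was left out. Between Top1 cKO-Veh and Top1 cKO-Topot the ratio was 7.00 with an interval of 0.939 to 311, so a difference was not detectable at this depth.

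Penk, the precursor of the enkephalin opioid peptides, lies at chr4:4060678-4065966 on the minus strand (NCBIM37). It was at 163, 146 and 136.5 CPM in WT-Veh and at 64.0, 39.2 and 76.2 CPM in WT-Topot. The CRE cultures held 177, 85.2 and 104 CPM with vehicle and 98.8, 61.4 and 79.1 CPM with topotecan. WT-Veh and WT-Topot did not overlap, whereas the Top1 cKO groups did. Penk fell 2.48-fold with topotecan in WT cultures (log2 −1.31 ± 0.23, edgeR adjusted p = 9.0e-04). In Top1 cKO cultures the change was −0.60 ± 0.25 (edgeR adjusted p = 1), all 3 same-numbered pairs were lower with topotecan, and with the block Penk fell (−0.57 ± 0.13). The effects of topotecan on Penk were not shown to differ between genotypes (interaction 0.71 ± 0.37, edgeR adjusted p = 0.69). Penk overlaps an antisense transcript in the annotation that is not among the counted symbols.

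Sst, Npy, Vip and Tac1 varied more between replicate numbers than Vgf and Scg2 did. Sst, which encodes somatostatin and carries the full element in its promoter, lies at chr16:23889667-23890930 on the minus strand (NCBIM37). It was at 77.5, 179 and 409.5 CPM in WT-Veh and at 46.25, 63.8 and 212 CPM in WT-Topot. With CRE, Sst was at 135, 176 and 330.2 CPM with vehicle and at 91.2, 109 and 400.4 CPM with topotecan. All 4 groups overlapped, and in each of them library 3 was the highest and library 1 the lowest. The level in library 3 was 2.44 to 5.28 times that in library 1. Topotecan in WT cultures gave −1.04 ± 0.48 on the log2 scale for Sst (edgeR adjusted p = 0.35), and −1.06 ± 0.14 with the block, where Sst fell. The value ran from −2.01 to −0.26 as single libraries were left out, and it was called without WT-Veh replicate 1 (−1.46) and without WT-Topot replicate 3 (−2.01). Such omissions leave the replicate numbers uneven between the groups, so these values mix replicate number with topotecan. Within replicate numbers the 3 differences of log2(CPM + 1) were all negative, from −1.475 to −0.73. Under topotecan Sst was higher in Top1 cKO than in WT libraries in all 3 pairs, by 0.77 to 0.96, a change called with the block (0.88 ± 0.12). Unblocked, leaving out WT-Topot replicate 3 gave a call at 1.85, as did leaving out Top1 cKO-Topot replicate 1 at 1.24, while the value was −0.084 without Top1 cKO-Topot replicate 3.

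Npy, the precursor of neuropeptide Y, lies at chr6:49772709-49779506 on the plus strand (NCBIM37) and followed Sst closely across the 12 libraries (r = 0.925 of log2(CPM + 1), given as a description of libraries that share replicate numbers). It was at 9.655, 32.0 and 37.4 CPM in WT-Veh, at 5.70, 7.44 and 16.7 CPM in WT-Topot, at 15.25, 17.2 and 23.05 CPM in Top1 cKO-Veh and at 14.3, 11.3 and 31.5 CPM in Top1 cKO-Topot. Library 3 was again the highest of its group in 4 of 4 groups. The log2 fold change in WT-Topot was −1.40 ± 0.45 (edgeR adjusted p = 0.094), and with the block Npy fell, at −1.39 ± 0.26. It was also called without WT-Veh replicate 1 (−1.84) and without WT-Topot replicate 3 (−1.965), in a range of −1.965 to −1.06. For Npy too, these omissions leave the replicate numbers uneven between the groups. In Top1 cKO cultures topotecan gave 0.05 ± 0.36 without and −0.05 ± 0.22 with the block.

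Vip, the precursor of vasoactive intestinal peptide, ran the other way between replicate numbers. It had 35, 21 and 3 counts in WT-Veh and 2, 7 and 2 in WT-Topot. With CRE it had 36, 39 and 3 counts after vehicle and 9, 15 and 1 after topotecan. Library 3 was the lowest in 3 of 4 groups, at 1 to 3 counts, so a change in the libraries numbered 3 was not detectable at this depth. The annotation places Vip at chr10:4698927-4707323 on the minus strand of NCBIM37, while the promoter table has it on the plus strand of GRCm38.p6. Summed counts in WT-Veh were 6.36 times those in WT-Topot after scaling (exact 95% counting interval 3.31 to 13.4). The fitted value was −2.53 ± 0.63 (edgeR adjusted p = 0.021) and with the block Vip fell, at −2.55 ± 0.53. Leaving out single libraries gave −3.19 to −2.18, with a call without WT-Veh replicate 3 (−2.94). Top1 cKO-Veh exceeded Top1 cKO-Topot 2.73-fold in summed counts (1.72 to 4.47), a difference called by neither fit.

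Tac1, the precursor of substance P and neurokinin A, lies at chr6:7505071-7512973 on the plus strand (NCBIM37). It was at 7.61, 25.0 and 8.64 CPM in WT-Veh, at 3.35, 5.725 and 2.57 CPM in WT-Topot, at 7.43, 21.1 and 7.52 CPM in Top1 cKO-Veh and at 9.96, 12.3 and 6.12 CPM in Top1 cKO-Topot. Library 2 was the highest in each of the 4 groups, and the 3 WT-Topot libraries lay below WT-Veh and below Top1 cKO-Topot. Topotecan in WT cultures gave −1.77 ± 0.48 for Tac1 (edgeR adjusted p = 0.038), and with the block Tac1 fell, at −1.75 ± 0.35. With single libraries left out it ran from −2.17 to −1.01, the latter without WT-Veh replicate 2, and it was called without WT-Veh replicate 1 (−2.10) or replicate 3 (−1.99).

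Crh, which encodes corticotropin-releasing hormone, lies at chr3:19593401-19595396 on the minus strand (NCBIM37). It had 20, 13 and 9 counts in WT-Veh and 0, 3 and 6 in WT-Topot. With CRE it had 27, 17 and 5 counts after vehicle and 14, 10 and 34 after topotecan. The WT-Topot libraries lay below those of WT-Veh and of Top1 cKO-Topot, but WT-Topot libraries 1 and 2 were at or under the floor of 3 counts. Scaled counts in WT-Veh were 5.53 times those in WT-Topot (exact 95% counting interval 2.65 to 12.9), and those in Top1 cKO-Topot 7.27 times (3.58 to 16.7). The fitted values were −2.35 ± 0.69 (edgeR adjusted p = 0.060) for topotecan in WT cultures and 2.83 ± 0.70 (edgeR adjusted p = 0.016) between genotypes under topotecan. With the block both were called, at −2.46 ± 0.60 and 2.78 ± 0.54. Omitting single libraries moved the first from −3.495 to −1.76, and it was called without WT-Topot replicate 3 (−3.495). The second ran from 2.02 to 3.96, the former without Top1 cKO-Topot replicate 3, and was called without WT-Topot replicate 2 (2.68), WT-Topot replicate 3 (3.96) or Top1 cKO-Topot replicate 1 (3.02).

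Cck, the precursor of cholecystokinin, was the exception among the 10 under topotecan in WT cultures. It lies at chr9:121398943-121404807 on the minus strand (NCBIM37). It was at 101, 307 and 192 CPM in WT-Veh and at 149.8, 213 and 173 CPM in WT-Topot, and these libraries overlapped. Cck in the CRE cultures was at 256, 369 and 380.3 CPM with vehicle and at 339.8, 339 and 559 CPM with topotecan, all above WT-Topot. Topotecan gave a log2 fold change of −0.16 ± 0.28 in WT cultures (edgeR adjusted p = 1), which was 0.30 without WT-Veh replicate 2. Under topotecan, Top1 cKO exceeded WT cultures 2.30-fold (log2 1.20 ± 0.19, edgeR adjusted p = 3.4e-04). With vehicle, the difference was 0.75 ± 0.30 (edgeR adjusted p = 0.42), and with the block Cck was higher in Top1 cKO-Veh, at 0.85 ± 0.12. The interaction was 0.46 ± 0.40 (edgeR adjusted p = 1).

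The spread of the 10 genes over the 12 libraries was divided into shares for group, replicate number and the rest. The replicate number took 72.1% of the sum of squares of log2(CPM + 1) for Sst, 44.1% for Npy, 44.0% for Vip and 40.6% for Tac1. For Ostn, Vgf and Scg2 the group took 94.2%, 88.9% and 79.5%, and the replicate number 1.72%, 5.61% and 1.93%. The replicate number took 4.83% for Crh, which had the largest rest, 35.0%.

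**Figure D3:**
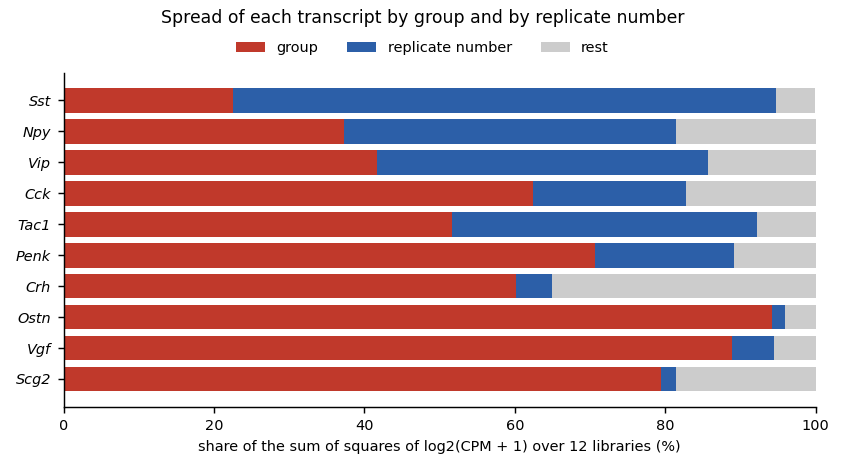
Share of the sum of squares of log2(CPM + 1) over 12 libraries, in percent, taken by group, replicate number and the rest for each gene. Sst stands out by its replicate number (72.1%) and Ostn by its group (94.2%).

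Some genes that mark the cells of a culture also differed between replicate numbers. Lhx6, a transcription factor of the interneuron lineage that includes Sst cells, was at 11.4 to 38.2 CPM in libraries numbered 1, at 29.4 to 68.1 in those numbered 2 and at 50.1 to 67.2 in those numbered 3. Aqp4, the water channel of astrocytes, went from 89.1 to 396.5 CPM in libraries numbered 1, 41.2 to 145 in those numbered 2 and 17.0 to 62.2 in those numbered 3 (range over the 4 groups in each case). The astrocyte gene Aldh1l1 went the way of Aqp4, at 21.45 to 31.0, 11.3 to 17.9 and 1.285 to 4.03 CPM (numbers 1, 2 and 3). So did Slc1a3, another astrocyte gene, at 267 to 987, 175.5 to 544 and 133 to 333 CPM. Not all other markers of the same lists followed these patterns. Sp8, another interneuron transcription factor, was at 5.36 to 11.4, 5.725 to 7.33 and 4.51 to 5.18 CPM in libraries numbered 1, 2 and 3. Gad1, an enzyme of GABA synthesis, was at 143 to 315, 243 to 633 and 260 to 496.5 CPM. These Gad1 ranges overlapped, with both ends lowest in libraries numbered 1, as for Lhx6. For the astrocyte genes Gfap and Aldoc both ends of the range were highest in libraries numbered 1, at 181 to 1233 and 519 to 713 CPM. Both ends were higher in libraries numbered 3 than in those numbered 2. Gfap was at 101.5 to 481 CPM (57.0 to 364 in those numbered 2) and Aldoc at 304.5 to 434 CPM (275 to 336 in those numbered 2). The part of these differences in the levels of Sst, Npy and Vip was not tested.

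**Figure D4:**
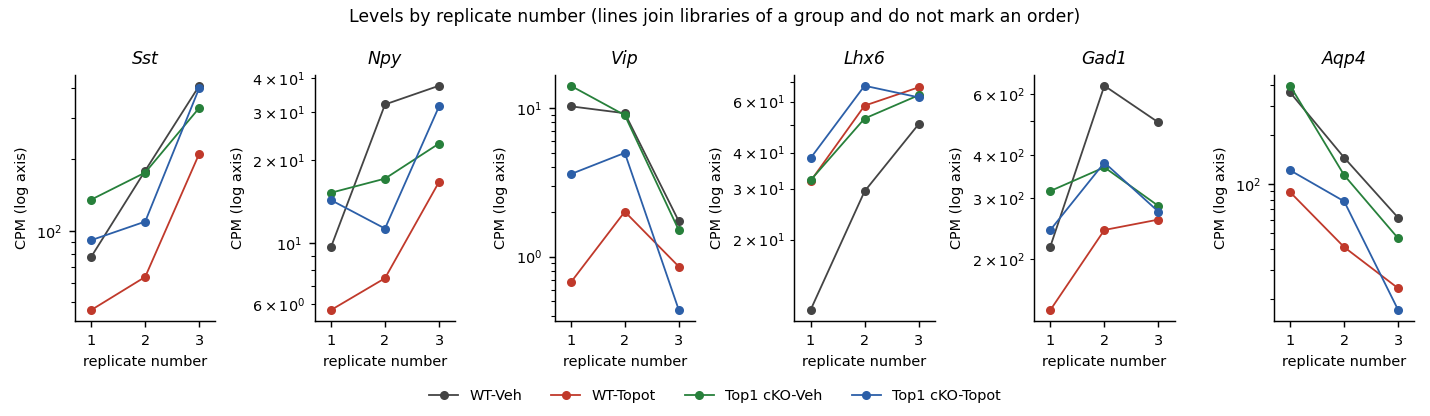
CPM on log axes of Sst, Npy, Vip, the interneuron genes Lhx6 and Gad1 and the astrocyte gene Aqp4 by replicate number, with 1 line for each group. Sst and Npy are highest in the libraries numbered 3 in 4 of 4 groups, where Aqp4 is at 17.0 to 62.2 CPM.

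Marker genes moved between the groups as well. The 11 interneuron markers, a list that holds none of the 10 genes, summed to 757 to 1612 CPM in WT-Veh, 597 to 915 in WT-Topot, 1058 to 1331 in Top1 cKO-Veh and 903 to 1354 in Top1 cKO-Topot. Between WT-Topot and WT-Veh, 0 of 11 fell and Sp9 rose, and with the block Gad1 and Gad2 fell while 4 rose, Lhx6 among them. Of all 13720 genes, 488 fell and 163 rose in this comparison (1195 and 771 with the block). The 8 astrocyte markers summed to 2320 to 4445 CPM in WT-Veh and 1045 to 1734 in WT-Topot. They summed to 2627 to 5803 CPM in Top1 cKO-Veh and 1648 to 3009 in Top1 cKO-Topot. With topotecan in WT cultures 3 of 8 (Gfap, Slc1a2 and Slc1a3) fell, and the median log2 fold change was −1.45. In Top1 cKO cultures 0 of 8 were called, all 8 values were negative and the median was −0.92. With the block 5 of 8 fell in WT and 4 of 8 in Top1 cKO cultures, beside 8.71% and 3.02% of genes. The 8 excitatory neuron markers summed to 2701 to 2966 CPM in WT-Veh, 3018 to 3438 in WT-Topot, 2961 to 3036 in Top1 cKO-Veh and 2584 to 2921 in Top1 cKO-Topot, and Tbr1 rose with topotecan in WT cultures. Between Top1 cKO-Topot and WT-Topot, Gad2, Nrn1, Slc1a2 and the mural cell gene Rgs5 were higher and Slc17a7 lower. Over the 12 libraries, markers of the oligodendrocyte lineage summed to 96.2 to 294 CPM, with Mag at 0 counts in every library, those of choroid plexus and meninges to 22.7 to 283.5, of endothelial and mural cells to 15.2 to 45.8, of microglia to 2.505 to 20.2 and of dividing cells to 7.49 to 14.0. None of these 5 lists held a call in WT-Topot against WT-Veh without the block. The part of cell makeup in the changes of the 10 genes was not tested.

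Other genes of the peptide pathway were read from lists of granins, processing enzymes, release proteins, precursors and receptors. Of the 5 other granins and granule proteins, Scg5, the chaperone of a prohormone convertase, was called lower in WT-Topot (160.8 ± 54.5 to 75.6 ± 18.2 CPM, log2 −1.08). The call was lost with the filter on low counts and without WT-Veh replicate 3, WT-Topot replicate 1 or WT-Topot replicate 2. Of the 6 processing enzymes, Pam, which amidates peptides, and Pcsk1, a prohormone convertase, fell. Pam went from 344 ± 136 to 103 ± 17.7 CPM and Pcsk1 from 97.35 ± 22.5 to 30.5 ± 7.85 CPM. The median log2 fold change was −0.39 over the 5 granule proteins and −0.34 over the 6 enzymes.

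Of the 8 granule membrane and release proteins, 3 fell with topotecan in WT cultures, with a median of −0.70 over the list. Ptprn2, a transmembrane protein of dense core granules, went from 418 ± 50.7 to 49.3 ± 15.7 CPM, a log2 fold change of −3.08. Cadps and Cadps2, which prime granules for release, fell by 2.26 and 2.11 on the log2 scale. These are long genes, with spans of 792, 451 and 577 kb, whereas the 10 peptide and granin genes span at most 43.7 kb.

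Of 26 other neuropeptide precursors, 11 averaged 1 CPM or more and 5 fell in WT-Topot. Adcyap1, the precursor of PACAP, went from 142 ± 51.2 to 38.8 ± 4.94 CPM (log2 −1.87), and Nppc, the precursor of C-type natriuretic peptide, from 32.9 ± 11.3 to 6.26 ± 3.84 CPM (log2 −2.35). Cort, which encodes cortistatin, had a log2 fold change of −3.36 and Pnoc, the nociceptin precursor, one of −2.21, and both calls were lost without WT-Veh replicate 2 and with the filter on low counts. Without that library the values were −2.29 and −1.27. Cartpt had 1 count in each WT-Topot library, and the summed counts of WT-Veh were 13.4 times as high (exact 95% counting interval 4.22 to 68.3). The Cartpt call was lost without WT-Veh replicate 1 and without any single WT-Topot library. Nppc also fell after Top1 deletion with vehicle, to 6.41 ± 0.55 CPM (log2 −2.34), a call lost with the filter on low counts and when replicate 2 of either group was left out.

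Among 21 receptors and binding proteins of the 10 peptides, Crhbp, which binds corticotropin-releasing hormone, fell from 42.5 ± 28.9 to 1.91 ± 0.72 CPM in WT-Topot (log2 −4.47). Npy1r, a receptor for neuropeptide Y, rose from 49.8 ± 21.9 to 127 ± 9.92 CPM (log2 1.37), a call lost with the filter on low counts. The median over this list was 0.15. Over the 66 genes of the 5 lists, 12 fell and 1 rose in WT-Topot, beside 3.56% of all genes that fell and 163 of 13720 that rose. With the block 19 fell and 6 rose, beside 8.71% that fell and 771 of 13720 that rose. The 66 include genes that averaged under 1 CPM, whereas the values for all genes cover only those at 1 CPM or more. After deletion with vehicle 1 fell (0.219% of all genes), and with the block 7 fell and 5 rose (5.15% and 4.53% of all genes).

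**Figure D5:**
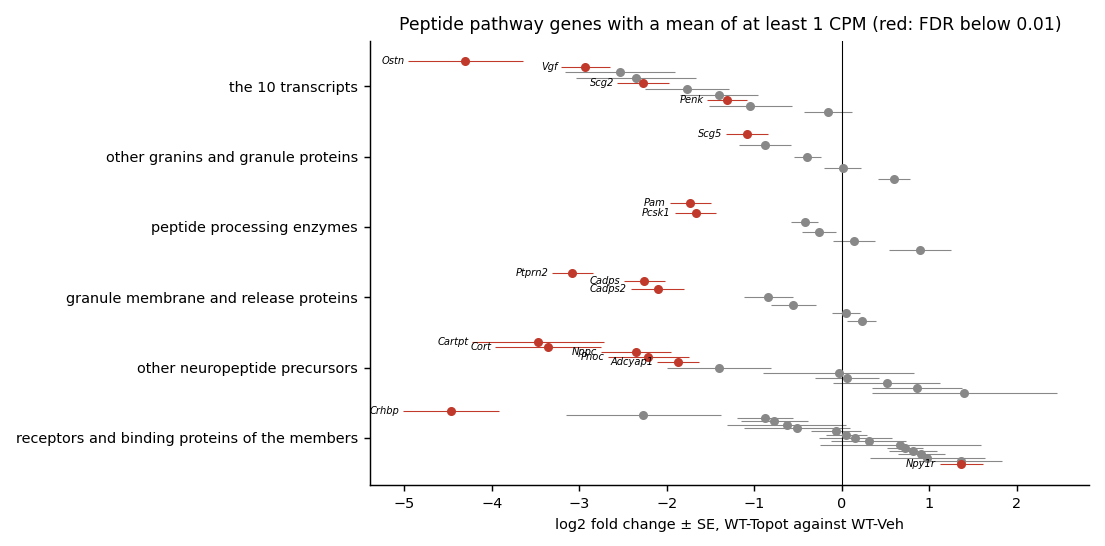
Log2 fold changes in WT-Topot against WT-Veh (points) with standard errors (bars) of the 10 genes and of 5 lists of the peptide pathway, for genes that averaged 1 CPM or more. Red points with names are under an FDR of 0.01, and all of them are negative except Npy1r, at 1.37.

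Between Top1 cKO-Topot and WT-Topot, 8 of the 66 genes were higher with CRE and 0 lower (16 and 1 with the block), beside 2.55% of all genes higher, or 8.02% with the block. Of all 13720 genes, 246 were lower, or 971 with the block. The 8 higher list genes were Cadps (log2 1.68), Cadps2 (1.63), Ptprn2 (1.75), Pcsk1 (1.66), Pam (0.84), Crhbp (2.62), the cholecystokinin receptor gene Cckbr (0.90) and Grp (2.42, or 3.06 without WT-Topot replicate 2), the precursor of gastrin-releasing peptide. The calls of Cadps2, Cckbr and Crhbp were lost with the filter on low counts. Cadps2 also lost its call without Top1 cKO-Topot replicate 2, Crhbp without Top1 cKO-Topot replicate 3, where its log2 value was 1.77, Cckbr without WT-Topot replicate 3, Top1 cKO-Topot replicate 1 or Top1 cKO-Topot replicate 2, and Pam without WT-Topot replicate 1, WT-Topot replicate 3 or Top1 cKO-Topot replicate 1. Between Top1 cKO-Topot and Top1 cKO-Veh, 0 of the 66 were called by edgeR, by DESeq2 or by edgeR's exact test. Of all 13720 genes, edgeR called 2 lower and 0 higher. At an unadjusted edgeR p under 0.05, 5 of the 66 had a negative and 1 a positive change, beside 591 and 348 of all 13720. With the block 4 of the 66 fell and 1 rose (3.02% and 1.49% of all genes).

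For each of the 10 genes, the 2 other genes with the most similar pattern over the 12 libraries, whatever their level, were found by Pearson's r of log2(CPM + 1). Libraries share groups and replicate numbers, so these values only describe the pattern. Vgf was most like R3hdm2 (r = 0.98) and Bdnf (r = 0.98), the gene of brain-derived neurotrophic factor, which ranged from 18.8 to 453 CPM. Scg2 was most like Hs6st2 (0.97) and Dusp6 (0.97), and Ostn like Atp1b1 (0.95) and Ptprr (0.93). Sst was nearest to Slc25a14 (0.95) and Rian (0.92), Npy to Scg5 (0.93) and Rheb (0.92), Vip to Qk (0.95) and Ptprz1 (0.95) and Tac1 to Osbpl6 (0.95) and Rnf165 (0.95). Cck was nearest to Slc36a1 (0.97) and Zwint (0.96), Penk to Gcnt4 (0.94) and Rcn2 (0.93) and Crh to Pappa (0.91) and Ranbp9 (0.90). Pappa was itself near the floor, at 0 to 5.76 CPM. Among the 10 genes themselves, the pairs Npy with Sst (0.925) and Scg2 with Vgf (0.921) were the most alike, and Cck with Ostn the least (−0.40).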

How the data were processed

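The 12 libraries were grouped and numbered by their labels. Raw counts per gene symbol, taken over RefSeq exons, were deposited by the authors. By the study's methods, the counts rest on TopHat alignments to mm9, both also named in the submitters' processing notes, with a TagDust screen first and rRNA reads left out. The counting program, its strand setting and the versions are not given in the sources used here, so reads of overlapping genes on opposite strands may be shared (Sp9 has such a partner).

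From the counts, CPM were computed on library sizes scaled by TMM over 12 libraries. Pairs of groups were fitted on their 6 libraries with edgeR's quasi-likelihood test (edgeR 4.0.16, R 4.3.3), without a filter on genes, with Benjamini-Hochberg adjustment over 23893 genes (5182 without a count) and an FDR of 0.01. The interaction was fitted on all 12. SE is the log2 fold change divided by the root of F. Scripts were tested on simulated data. Alternatives were DESeq2 size factors and test (DESeq2 1.42.0), edgeR's exact test, filterByExpr, a replicate block and leaving out each library. Libraries were left out in fits without the block, which makes the replicate numbers uneven between the groups. Deviations of 13720 genes from group means correlated at 0.261 to 0.485 between libraries of the same number and at −0.384 to −0.0494 between different numbers. The numbers come from the labels, and what they stand for is not given in the sources used here.

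The 10 genes and all lists were chosen with earlier results of these data known. Genes of other lists were named where called, at most 5 per list and comparison, and 2 genes were named by likeness to each of the 10. Positions are from GENCODE vM1 (139 of 140 listed symbols matched), exon length is the union of its exons, and 6 of 10 promoters matched.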

Additional observations from a re-analysis of the deposited data

Results flagged for a closer look

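The effect of topotecan differed between Top1 cKO and WT cultures, by the edgeR interaction test at an FDR of 0.01, for 6 genes of the peptide pathway. All 6 had a positive difference of log2 fold changes (Top1 cKO minus WT). Most calls among all 13720 genes were positive too, 95 against 9 negative. With the block these were 582 and 365, and of the 66 list genes 8 were called positive and 2 negative. Vgf differed by 2.83 and Scg2 by 2.65 on the log2 scale, as given above. Among the other lists, Ptprn2 differed by 2.60 (edgeR adjusted p = 1.3e-04), Adcyap1 by 2.04 (edgeR adjusted p = 0.0063), Pcsk1 by 1.85 (edgeR adjusted p = 0.0065) and Cadps by 1.75 (edgeR adjusted p = 0.0065). Ptprn2 was at 181 to 270 CPM in Top1 cKO-Veh and 141 to 187 CPM in Top1 cKO-Topot, and Pcsk1 at 75.9 to 95.5 and 71.1 to 129 CPM. The calls of Adcyap1, Pcsk1 and Cadps were lost with the filter on low counts and under leaving out several single libraries, and the cause was not tested.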

How the results depend on the processing

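Scaling by DESeq2 size factors, DESeq2's test and edgeR's exact test kept the count of genes called among the 10 within 1.5 times in every comparison where they were run. The replicate block raised it from 4 to 9 (WT-Topot against WT-Veh), from 1 to 4 (Top1 cKO-Veh against WT-Veh), from 0 to 2 (topotecan in Top1 cKO cultures) and from 3 to 7 (Top1 cKO-Topot against WT-Topot), and left the interaction at 2. The filter on low counts lowered it to 0 (Top1 cKO-Veh against WT-Veh) and to 1 (interaction), and the cause was not tested. Leaving out 1 library gave 4 to 7 calls in WT-Topot against WT-Veh (7 without WT-Veh replicate 1 or WT-Topot replicate 3), 0 to 1 in Top1 cKO-Veh against WT-Veh (0 without WT-Veh replicate 2 or Top1 cKO-Veh replicate 2), 0 to 0 between the Top1 cKO groups, 3 to 5 between the topotecan groups (5 without WT-Topot replicate 3 or Top1 cKO-Topot replicate 1) and 2 to 2 for the interaction.

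With the block, 3 log2 values that were called in neither fit changed sign: Sst (0.127) and Crh (−0.021) after deletion, and Npy with topotecan in Top1 cKO cultures (−0.0548). Of the single library omissions, 24 changed the sign of a log2 value that was not called. The log2 values under these omissions ran from −0.49 to 0.30 for Cck in WT-Topot against WT-Veh. After deletion with vehicle they ran from −0.50 to 0.74 for Sst, −0.37 to 0.61 for Vip, −0.87 to 0.63 for Tac1 and −0.76 to 0.32 for Crh. For topotecan in Top1 cKO cultures they ran from −1.075 to 0.37 for Sst, −0.51 to 0.33 for Npy, −0.63 to 0.35 for Tac1, −0.34 to 1.23 for Crh and −0.32 to 0.095 for Vgf. Between the genotypes under topotecan Sst ran from −0.084 to 1.85. The interaction ran from −0.032 to 1.90 for Sst and from −0.067 to 2.35 for Ostn. Levels moved by less than 1 SD with DESeq2 size factors (40 of 40) and with plain library totals (40 of 40). They also did so in 120 omissions of a library. A mean of 3 cannot move by 1 SD in that way, so the omissions do not test the levels. Of 26 calls of genes in the other lists, 13 held under all alternatives, which were added for these genes after the data were seen. Genes under 3 counts in a library, Ostn outside WT-Veh above all, are limited by depth.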
